A study of Mus musculus with 21 samples.

Results

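The enzymes described here belong to the cytochrome P450 families Cyp1 to Cyp4 and to the aldo-keto reductase 1, aldehyde dehydrogenase, carboxylesterase, UDP-glucuronosyltransferase, sulfotransferase and flavin monooxygenase families. Members were all genes whose symbol begins with one of these family names (Cyp1 to Cyp4, Akr1a to Akr1e, Aldh, Ces, Ugt, Sult or Fmo) followed by the usual family numbering, with Cyp4f39 left out. This gave 184 of the 22050 entries of the expression table. The rule uses gene names only and no measured value, but it was set with earlier results of these data known.

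Keratinocytes meet foreign chemicals and steroid hormones at the body surface. Cytochrome P450 enzymes and flavin monooxygenases oxidize such compounds, carboxylesterases hydrolyze esters, and aldo-keto reductases and aldehyde dehydrogenases convert ketones and aldehydes. Sulfotransferases and glucuronosyltransferases then attach water-soluble groups, and several members of these families act on the body's own retinoids, sterols, progestins, estrogens and fatty acids.

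The data were mRNA-seq profiles of GFP+ epidermal cells from dorsal skin of mice of mixed FVB, C57Bl and 129sv background. In the 4 p16 samples the genotype was K5-rtTA/tet-GFP/tet-p16, in which doxycycline switches on human p16, a cell-cycle inhibitor, together with GFP. The 4 control samples were K5-rtTA/tet-GFP, which carry the same rtTA and GFP transgenes without p16. All mice received doxycycline for 6 months from 3 weeks of age, and the methods describe mice of this induction as male. Each sample held about 80000 cells pooled from 3 mice, after removal of cells that carried CD45, CD31 or CD140a. The K5 promoter drives rtTA in the basal layer of the epidermis, and GFP+ cells need not be of 1 cell type. The methods place the samples in 3 experiments, and the labels used here do not say which sample came from which. The comparison of p16 with control samples asks which genes differed in these cells after months of p16 expression. A second profiling of 13 samples was not analysed here.

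Read totals on genes ran from 1760953 to 3414362 in control samples and from 2884544 to 3202975 in p16 samples. All values below are normalized read counts, that is, reads per gene divided by a scaling factor for the sample, and 1 read was worth between 0.742 and 1.53 of this unit. The libraries read only the 3′ ends of transcripts, so a value was not divided by gene length and is compared across samples rather than between genes. Human p16 (hsCDKN2A in the table) had values of 0.7, 1.3, 2.5 and 1.5 in control samples 1 to 4 and of 1.6, 10.1, 16 and 7.4 in p16 samples 1 to 4. The library labelled p16 replicate 1 therefore lay within the control range for the induced gene, and counts of called genes are also given without it. Its value of 1.6 was 2 reads, under the floor of 3 reads used below. Of the members called lower without it, Akr1c18, Cyp1b1 and Ces1d were lower in this library than in every control sample, and Cyp2f2 was not. EGFP reads were 1.5-fold lower in p16 samples (log2 fold change -0.58, limma adjusted p = 0.0167).

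A large share of these genes had no reads in the sorted cells. Of the 184 members, 103 had no read in any of the 8 samples, and 128 never exceeded 3 reads in a sample. The 56 members with a mean value of at least 1 were tested. Of these, 6 reached that limit through 1 group only (Ces1d, Cyp2f2, Ces4a, Ugt1a6a, Sult1a1 and Fmo1). The glucuronosyltransferases were the least represented family, with 18 of 22 genes at 0 in every sample and all 22 at 3 reads or fewer. Of the sulfotransferases 14 of 19 were at 0, of the Cyp2 genes 31 of 49, of the Cyp3 genes 8 of 9, of the Cyp4 genes 12 of 19 and of the carboxylesterases 11 of 20. The aldehyde dehydrogenases stood at the other end, with 1 of 21 genes at 0 and 19 tested. The remaining families gave 2 of 3 Cyp1, 7 of 15 Akr1 and 3 of 7 Fmo genes for testing.

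A handful of members changed, and most of those were lower in p16 cells. Akr1c18, Cyp1b1, Ces1d, Cyp2d22 and Aldh1a2 fell and Sult5a1 rose at a limma adjusted p under 0.05. These are 5 of 56 tested members lower and 1 of 56 higher. Among all 12782 tested genes, 2.61% were called lower, 1.24% were called higher and 3.86% were called in either direction. Without p16 replicate 1, limma called Akr1c18, Cyp1b1, Ces1d and Cyp2f2 lower, and Cyp2d22, Aldh1a2 and Sult5a1 were no longer called. Calls among all genes also fell in that fit, from 334 to 192 lower and from 159 to 69 higher. With all 8 samples and an unadjusted limma p under 0.05, 7 members were lower and 4 higher, against 8.93% and 7.02% of all tested genes. The values of the groups did not overlap for 5 members that were lower and 5 that were higher in p16 cells, against 5.63% and 4.19% of all tested genes (10 members in either direction, against 9.83%).

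As a list, the enzymes stayed centred near 0. The median log2 fold change of the 56 tested members was 0.06, and that of all tested genes was -0.003. Log2 fold changes were above 0 for 33 members and below 0 for 23, and 41 members lay within 0.5 of 0. Log2 fold changes reached an absolute size of 1 for 9 members, a size reached by 5.22% of all tested genes. The summed value of all members was 7830.5 to 8609.1 in control samples and 8597.1 to 9214.8 in p16 samples, and these ranges overlapped.

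**Figure D1:**
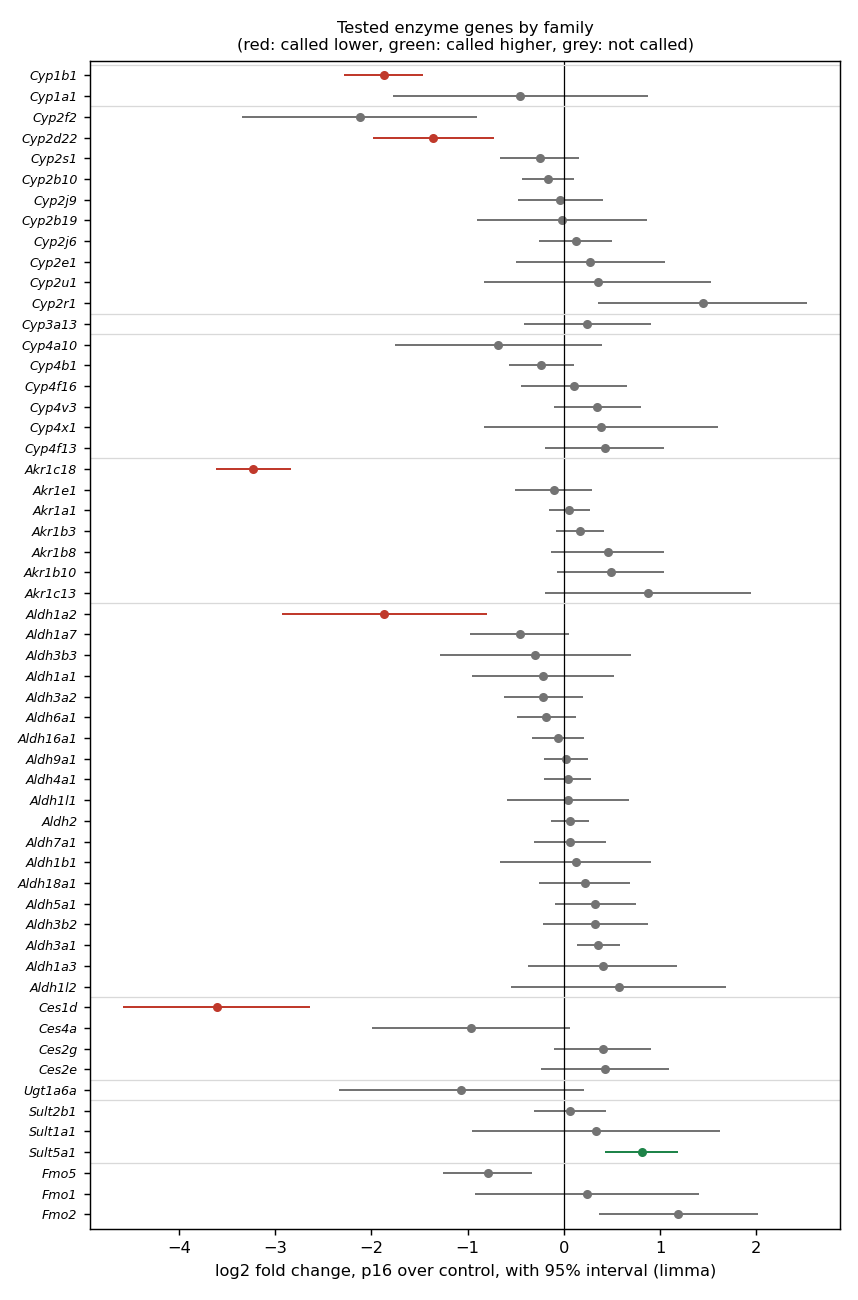
Each point is the log2 fold change of 1 tested enzyme gene (p16 over control, x axis, on the log2(value + 1) scale) with its 95% limma interval, and genes are grouped by family from top to bottom. Most intervals cross 0, while Akr1c18, Cyp1b1, Ces1d, Cyp2d22 and Aldh1a2 (red) lie to the left of it and Sult5a1 (green) to the right.

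Markers of other epidermal compartments moved in the same comparison. Of 12 tested sebaceous gland markers, 8 were called lower in p16 cells (7 without p16 replicate 1), and the summed value of the list was 2135.5 to 2749.4 in control samples and 1041.8 to 1379.6 in p16 samples. No gene of that list was at 0. Among its low genes typical of sebocytes, Awat2 was called lower (means of 8.57 and 1.8, limma adjusted p = 0.0201), while Awat1 and Mc5r never exceeded 3 reads, and Mc5r was at 0 in all p16 samples. Of 9 hair follicle bulge markers 7 were called lower (4 without p16 replicate 1). The bulge sums were 11747.0 to 15949.4 in control samples and 9041.8 to 9109.9 in p16 samples. Most of each bulge sum was Krt15, with 8442.8 to 13136.4 in control and 6607.4 to 7834.0 in p16 samples. Postn was the 1 bulge marker with a log2 fold change above 0 (0.73, means of 287 and 501), and it was not called. Of 6 upper follicle and infundibulum markers 3 were called lower (2 without p16 replicate 1), with sums of 16198.5 to 24515.1 and 13193.1 to 16107.1. In each of these 3 lists the summed values of the groups did not overlap. The gap was narrow for the upper follicle and infundibulum list, with 16198.5 in control replicate 2 and 16107.1 in p16 replicate 3. Most of that sum was Krt17 and Krt79, which were not called (limma adjusted p = 0.478 and 0.724).

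All 6 tested melanocyte markers also had log2 fold changes below 0, with a median of -1.83. Of these, 2 were called lower (0 without p16 replicate 1) and 5 were lower at an unadjusted limma p under 0.05, with sums of 133.5 to 522.3 in control and 48.4 to 142.9 in p16 samples.

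Other marker lists gave fewer calls or calls in either direction. Of 7 basal interfollicular markers 1 was called, Krt15, which was lower and is also on the bulge list (0 called without p16 replicate 1), and the sums were 31880.9 to 52881.9 in control and 32055.6 to 36674.6 in p16 samples. The 9 differentiated keratinocyte markers split, with Lor higher and Ivl, Sbsn and Calml3 lower (1 higher and 2 lower without p16 replicate 1), and sums of 7150.9 to 10044.0 and 7258.0 to 10572.1. Fibroblast markers gave 1 higher and 1 lower of 6 tested (1 higher and 0 lower without p16 replicate 1), with Lum and Mfap5 at 0 and sums of 70.9 to 142.1 and 73.2 to 282.8. The higher one, Dcn, rose from 2.6 to 10.7 in control to 36.2 to 203.0 in p16 samples (log2 fold change 3.82, limma adjusted p = 0.000233). The lower one, Fbln1, averaged 86.7 and 44.6 (log2 fold change -0.98, limma adjusted p = 0.0435). Of 5 macrophage and Langerhans, 5 T cell and 2 endothelial markers tested with limma, 0 were called, with or without p16 replicate 1. The count was also 0 of the 2, 1 and 1 that edgeR tested and of the 5, 4 and 2 that DESeq2 tested. At an unadjusted limma p under 0.05 there were 1 higher (Thy1) and 1 lower (Cd3d) on the T cell list and 1 higher on the macrophage list. Sums ran from 114.7 to 128.4 and from 110.8 to 157.8 for the macrophage list (Lyz2 at 0), from 594.3 to 813.6 and from 692.4 to 2923.0 for the T cell list, and from 9.0 to 15.2 and from 14.2 to 26.4 for the endothelial list (Cdh5, Kdr, Emcn and Cldn5 at 0), in control and p16 samples in turn. The T cell sum was mostly Thy1, which other cell types also carry (582.1 to 791.8 in control and 674.8 to 2908.2 in p16 samples), while Cd3d, part of the T cell receptor complex, averaged 11.4 and 5.28. None of the 8 adipocyte markers was tested, and Adipoq, Cfd, Fabp4, Lep and Car3 were at 0. In bulk samples, fewer cells of a type and less RNA per cell cannot be told apart. The part of these markers in the enzyme results was not tested.

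**Figure D2:**
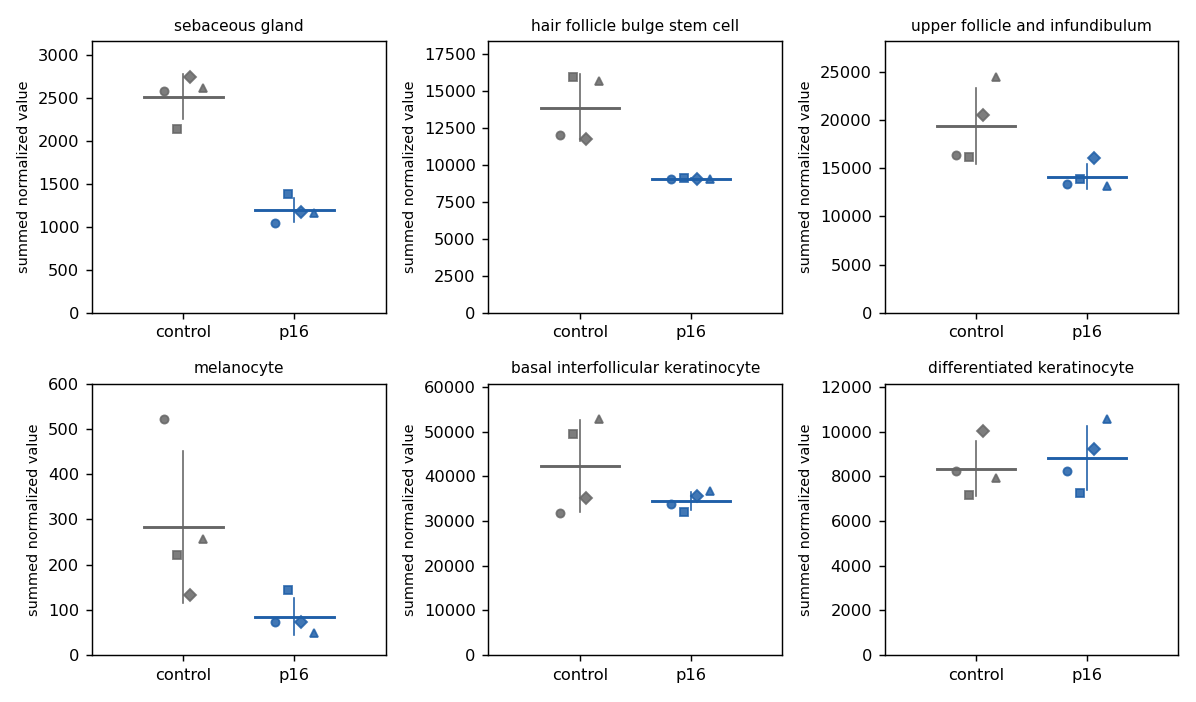
Points are the summed normalized values (y axis, from 0) of 6 marker lists in each sample, with circles, squares, diamonds and triangles for replicates 1 to 4, horizontal lines for group means and vertical lines for the SD. The sebaceous, bulge and infundibulum sums were lower in all 4 p16 samples than in any control sample, and the melanocyte, basal and differentiated sums overlapped between groups.

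Promoters of the called members are printed here, and short motifs of a receptor and of a stress response were searched in them. Sequence farther from the gene starts was not searched. RefSeq (GRCm38.p6) gave a window from 250 bases before to 50 bases after the start for 147 of the 184 members and for 4 of the 6 called members, while Ces1d and Cyp2d22 had no entry in the table used. The searched motifs were the core GCGTG, bound by the AhR-ARNT dimer, and TGACNNNGC, the core of the antioxidant response element, each on both strands. The motifs do not overlap in the printed windows, and capitals mark the matches. Each window is written from 5′ to 3′ on the strand of its gene.
Akr1c18 (chr13:4150597-4150896, strand -): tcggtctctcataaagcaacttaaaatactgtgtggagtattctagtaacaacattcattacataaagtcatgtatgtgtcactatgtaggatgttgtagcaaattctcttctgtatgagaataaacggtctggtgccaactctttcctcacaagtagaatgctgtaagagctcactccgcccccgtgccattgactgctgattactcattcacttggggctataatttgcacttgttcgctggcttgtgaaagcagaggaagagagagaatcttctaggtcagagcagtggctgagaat
Cyp1b1 (chr17:79715012-79715311, strand -): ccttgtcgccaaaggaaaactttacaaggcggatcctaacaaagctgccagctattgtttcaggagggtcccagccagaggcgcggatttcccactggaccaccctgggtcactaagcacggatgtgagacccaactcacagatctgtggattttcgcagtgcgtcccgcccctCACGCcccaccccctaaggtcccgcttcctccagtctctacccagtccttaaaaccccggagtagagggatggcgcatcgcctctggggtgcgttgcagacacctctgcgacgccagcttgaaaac
Aldh1a2 (chr9:71215539-71215838, strand +): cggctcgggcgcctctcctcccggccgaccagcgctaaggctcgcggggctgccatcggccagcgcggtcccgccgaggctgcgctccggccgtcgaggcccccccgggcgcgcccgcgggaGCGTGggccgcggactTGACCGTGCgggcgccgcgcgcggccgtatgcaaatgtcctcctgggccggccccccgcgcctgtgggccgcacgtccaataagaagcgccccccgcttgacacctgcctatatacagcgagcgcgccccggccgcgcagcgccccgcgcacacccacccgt
Sult5a1 (chr8:123158231-123158530, strand -): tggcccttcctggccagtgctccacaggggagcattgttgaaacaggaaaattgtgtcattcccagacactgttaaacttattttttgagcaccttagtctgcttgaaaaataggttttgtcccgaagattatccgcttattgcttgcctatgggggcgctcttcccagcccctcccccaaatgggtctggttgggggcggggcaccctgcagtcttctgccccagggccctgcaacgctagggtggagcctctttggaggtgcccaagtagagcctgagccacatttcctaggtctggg
Cyp1b1 held 1 GCGTG core, which reads CACGC on the printed strand. Aldh1a2 held 1 GCGTG and 1 TGACNNNGC core in a window of 78.0% GC, and Akr1c18 (42.3% GC) and Sult5a1 (54.7% GC) held neither. GCGTG occurred in 32.4% of all 32851 promoters of this length, in 18.6% of 161 member promoters and in 36.2% of the 47 promoters of tested members. TGACNNNGC occurred in 12.4% of all promoters, in 4.97% of member promoters and in 6.38% of those of tested members. A match is a run of letters and not evidence of binding, and no match says only that these letters are missing from this window.

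Cyp1 enzymes oxidize polycyclic aromatic compounds and estrogens, and their transcription is induced through the aryl hydrocarbon receptor. Cyp1b1 (GRCm38 chr17:79701537-79715061) was the Cyp1 gene carried by these cells, with values of 183.2, 182.2, 234.7 and 216.9 in control samples 1 to 4 and 60.0, 78.9, 49.7 and 37.8 in p16 samples 1 to 4. Every p16 sample lay below every control sample. The mean fell from 204 ± 25.9 to 56.6 ± 17.4 (SD, n = 4 each), which is 3.61-fold lower, with a log2 fold change of -1.87 (SE 0.19, limma adjusted p = 8.49e-05). All 50-base stretches in the last 500 bases of its transcript were unique to it, so its 3′ reads could be told from those of relatives. Cyp1a1, the other tested Cyp1 gene, averaged 2.95 and 1.48 with a log2 interval of -1.77 to 0.86.

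Among Cyp2 genes, Cyp2d22 (chr15:82370527-82380260), a mouse member of the drug-oxidizing Cyp2d subfamily, was the called one. It had values of 26.0, 18.0, 11.7 and 22.9 in control samples and of 6.4, 6.2, 7.1 and 7.4 in p16 samples. The groups did not overlap, and the p16 samples were close to each other. The mean fell from 19.65 ± 6.24 to 6.78 ± 0.568 (SD, n = 4 each), 2.90-fold lower (log2 fold change -1.36, SE 0.29, limma adjusted p = 0.0173). The call was lost without control replicate 1 (adjusted p = 0.0739) and without p16 replicate 1 (0.0522). All other members of the Cyp2d cluster on this chromosome were at 0 in all samples except Cyp2d26, which had 1.6 in p16 replicate 1.

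Cyp2f2 (chr7:27119909-27133660), known for oxidizing naphthalene in airway cells, had values of 8.2, 10.3, 7.5 and 1.5 in control samples and 2.4, 0.0, 0.0 and 0.8 in p16 samples. The p16 samples held at most 3 reads each, and control replicate 4 lay inside their range. The log2 fold change was -2.12 (SE 0.57) and missed the threshold (limma adjusted p = 0.0527). Cyp2f2 had a log2 interval of -3.336 to -0.912, and its control mean was 2.79-fold that of a floor of 3 reads per library. It passed under DESeq2 (adjusted p = 0.0494), with no filter on low values (0.0415), without control replicate 4 (0.0165) and without p16 replicate 1 (0.0455).

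Cyp2r1 (chr7:114549682-114562972), a vitamin D 25-hydroxylase, had higher values in p16 cells at a low level. Values were 3.0, 3.9, 0.8 and 0.0 in control samples and 7.2, 4.7, 4.4 and 6.6 in p16 samples, with no overlap. The log2 fold change of 1.44 (SE 0.50) did not pass the test (limma adjusted p = 0.154).

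Cyp2b10, an inducible drug-oxidizing P450, averaged 151 ± 16.2 in control and 134 ± 12.9 in p16 samples (SD, n = 4 each), with a log2 interval of -0.42 to 0.10. For Cyp2j6, which acts on polyunsaturated fatty acids, the means were 125 ± 29.8 and 134 ± 17.4, with an interval of -0.25 to 0.49. Neither was called, and each interval includes 0. Cyp2b19, an arachidonic acid epoxygenase of differentiated keratinocytes that was picked after its values were seen, averaged 9.82 and 8.68 with an interval of -0.90 to 0.86.

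The Cyp3 and Cyp4 families held no called gene. Cyp3a13, the Cyp3 gene with reads, had values of 18.5, 30.8, 16.7 and 18.3 in control samples and 21.6, 17.2, 20.4 and 46.0 in p16 samples. One sample of each group stood high, control replicate 2 and p16 replicate 4, and the log2 interval was -0.41 to 0.89. Cyp4b1, which hydroxylates fatty acids and activates several xenobiotics, had values of 567.5, 568.5, 431.0 and 429.3 in control samples and 427.0, 574.6, 360.0 and 351.1 in p16 samples. These ranges overlapped, and the log2 fold change of -0.24 (SE 0.15) was not called (limma adjusted p = 0.506). The other 5 tested Cyp4 genes had log2 fold changes between -0.68 and 0.42.

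Flavin monooxygenases oxidize nitrogen and sulfur atoms of drugs and dietary compounds. Fmo5 (chr3:97628804-97655282), a family member that also inserts oxygen into ketones, had values of 108.3, 150.2, 162.9 and 131.4 in control samples and 80.0, 124.1, 70 and 54.3 in p16 samples. Only p16 replicate 2 reached into the control range. The log2 fold change was -0.79 (SE 0.21, limma adjusted p = 0.0525), and the exact two-sided permutation test gave p = 0.0571. The gene passed under DESeq2 (adjusted p = 0.0346) and without p16 replicate 2 (0.00486). Fmo2, known mainly from lung, had values of 1.5, 2.6, 1.7 and 3.1 in control samples and 5.6, 10.1, 4.4 and 5.8 in p16 samples. The groups did not overlap and each control sample held 2 reads. The p16 mean was 1.97-fold that of the floor of 3 reads per library. The log2 fold change was 1.19 (SE 0.38, log2 interval 0.375 to 2.003, limma adjusted p = 0.113).

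Aldo-keto reductases reduce aldehydes, ketones and steroids with NADPH. Akr1c18 (chr13:4132615-4150654), a 20α-hydroxysteroid dehydrogenase that inactivates progesterone, had values of 247.8, 270.8, 228.8 and 198.6 in control samples and 23.2, 34.4, 18.6 and 23.0 in p16 samples. The highest p16 sample was far below the lowest control sample. The mean fell from 236.5 ± 30.6 to 24.8 ± 6.74 (SD, n = 4 each), 9.54-fold lower (log2 fold change -3.23, SE 0.18, limma adjusted p = 4.42e-07). The exact two-sided permutation test gave p = 0.0286, the smallest that 4 samples against 4 allow. No other gene of the Akr1c cluster on chromosome 13 came near these values. Akr1c13 had at most 3.9, Akr1c14 and Akr1c19 at most 1.6 and 0.8, and Akr1c6, Akr1c12, Akr1c20 and Akr1c21 were at 0 throughout.

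The Akr1 genes for general aldehyde reduction did not pass the test. Akr1a1, aldehyde reductase, averaged 839 ± 71.3 in control and 873 ± 74.5 in p16 samples (SD, n = 4 each), with a log2 interval of -0.15 to 0.26. Akr1b3, aldose reductase of the polyol pathway, averaged 349.6 ± 41.9 and 391.8 ± 44.9, with an interval of -0.08 to 0.41. The summed value of the Akr1 family was 1402.1 to 1648.6 in control and 1321.1 to 1621.3 in p16 samples, and these ranges overlapped although Akr1c18 fell. Akr1b10, picked for its lack of overlap, ran from 8.4 to 11.9 in control and from 12.8 to 17.3 in p16 samples (log2 fold change 0.49, limma adjusted p = 0.381).

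Aldehyde dehydrogenases oxidize aldehydes from lipids, amino acids and retinoids to acids. Aldh3a1 (chr11:61207537-61218421), which clears aldehydes from lipid peroxidation and is abundant in the cornea, had values of 2398.3, 2278.0, 1910.9 and 2554.5 in control samples and 2789.7, 2934.1, 2921.6 and 3012.6 in p16 samples. All p16 samples lay above all control samples. The means were 2285 ± 274 and 2914.5 ± 92.4 (SD, n = 4 each), and the log2 fold change of 0.36 (SE 0.10) missed the threshold (limma adjusted p = 0.0679). It passed under DESeq2 (adjusted p = 0.0141), with scaling to equal totals (0.0304) and without control replicate 4 (0.0475). The summed value of the family was 4165.9 to 5034.3 in control and 5199.7 to 5554.9 in p16 samples. Most of that gap was Aldh3a1, since the sum of the other 20 members was 2255.0 to 2479.8 in control and 2356.8 to 2542.3 in p16 samples, and these ranges overlapped.

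Aldh1a2 (chr9:71215789-71296243) makes retinoic acid from retinaldehyde. Its values were 3.7, 3.9, 20 and 7.6 in control samples and 1.6, 0.8, 1.8 and 0.8 in p16 samples. The groups did not overlap, but control replicate 3 stood well above the other controls, and every p16 sample held 3 reads or fewer. The control mean was 3.57-fold that of the floor of 3 reads per library. The log2 fold change was -1.87 (SE 0.49, log2 interval -2.916 to -0.815, limma adjusted p = 0.0492). This call was the least stable, with an adjusted p of 0.151 without control replicate 3 and past the threshold in 1 of 8 fits that left out a sample. The other retinaldehyde dehydrogenases were not called, since Aldh1a1 averaged 17.5 and 15.6 (log2 interval -0.95 to 0.51) and Aldh1a3 averaged 4.92 and 6.55 (-0.36 to 1.16).

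Aldh2, Aldh9a1, Aldh4a1, Aldh6a1 and Aldh16a1, named for their high means, gave narrow intervals that include 0. Intervals were wider for members with fewer reads, such as Aldh1b1 (-0.654 to 0.898) and Aldh1l2 (-0.536 to 1.67). Aldh2, which oxidizes acetaldehyde, had a control range of 892.0 to 1061.8 and a p16 range of 996.2 to 1086.2, with a log2 fold change of 0.06 (SE 0.09). Aldh9a1 of carnitine synthesis averaged 391.8 and 397, Aldh4a1 of proline breakdown 263 and 272, Aldh6a1 of valine breakdown 140 and 124, and Aldh16a1 132 and 127. None of these 5 was called, and the widest of their intervals ran from -0.48 to 0.12 for Aldh6a1. Aldh3b2 was uneven in p16 samples, with 242.3 and 259.0 in replicates 1 and 4 and 127.3 and 97.5 in replicates 2 and 3, against 120.6 to 152.8 in control samples (limma adjusted p = 0.591).

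Carboxylesterases cleave ester bonds in drugs and lipids. Ces1d (chr8:93166068-93197838), a triacylglycerol hydrolase of liver and fat, had values of 20, 12.8, 14.2 and 29.0 in control samples and 0.0, 2.3, 0.0 and 0.8 in p16 samples. No p16 sample held more than 3 reads, and every control sample did. The control mean was 7.70-fold that of the floor of 3 reads per library. Ces1d had a log2 fold change of -3.61 (SE 0.45, log2 interval -4.571 to -2.649, limma adjusted p = 0.000364). Its neighbours Ces1a, Ces1c, Ces1e, Ces1f and Ces1h were at 0 in all samples, and Ces1b and Ces1g had 1 read each in 1 sample. Ces2g, the carboxylesterase with the most reads, averaged 75.1 ± 30.9 and 95.8 ± 19.6 (SD, n = 4 each) with a log2 interval of -0.09 to 0.89. Ces5a had a mean of 0.938 over all samples, under the limit of 1 for the main test. It had 0 in all control samples and 1.6, 1.6, 3.5 and 0.8 in p16 samples, which lies near the floor of 3 reads. Its result with no filter on low values is not given here.

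Sulfotransferases transfer sulfate from the donor PAPS to sterols, hormones and phenols. Sult5a1 (chr8:123140192-123158315), a family member whose substrates are little known, had values of 503.7, 447.9, 418.4 and 507.2 in control samples and 1113.8, 972.8, 751.0 and 553.3 in p16 samples. The groups did not overlap, but p16 replicate 4 lay just above the highest control sample. The mean rose from 469 ± 43.5 to 848 ± 247 (SD, n = 4 each), 1.81-fold (log2 fold change 0.81, SE 0.17, limma adjusted p = 0.0164). The adjusted p was 0.0521 without control replicate 3, 0.0544 without p16 replicate 1 and 0.0855 without replicate 3 of both groups. Sult2b1, the cholesterol sulfotransferase of the epidermal barrier and a gene picked after its values were seen, averaged 65.1 and 67.7 with a log2 interval of -0.30 to 0.43.

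Among glucuronosyltransferases Ugt1a6a, a phenol-conjugating enzyme, was the tested one, with 0.0, 1.3, 1.7 and 4.6 in control samples and 0.0, 0.8, 0.0 and 0.0 in p16 samples. It held 3 reads or fewer in every sample, so no difference was detectable at this depth. The Ugt1a genes share their 3′ exons, and only 33.3% of the 50-base stretches in the last 500 bases of Ugt1a6a were unique to it. Such sharing was rare among the other tested members, since 50 of 56 had at least 90% of these stretches unique, and the 6 called members had 92.1% to 100%.

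**Figure D3:**
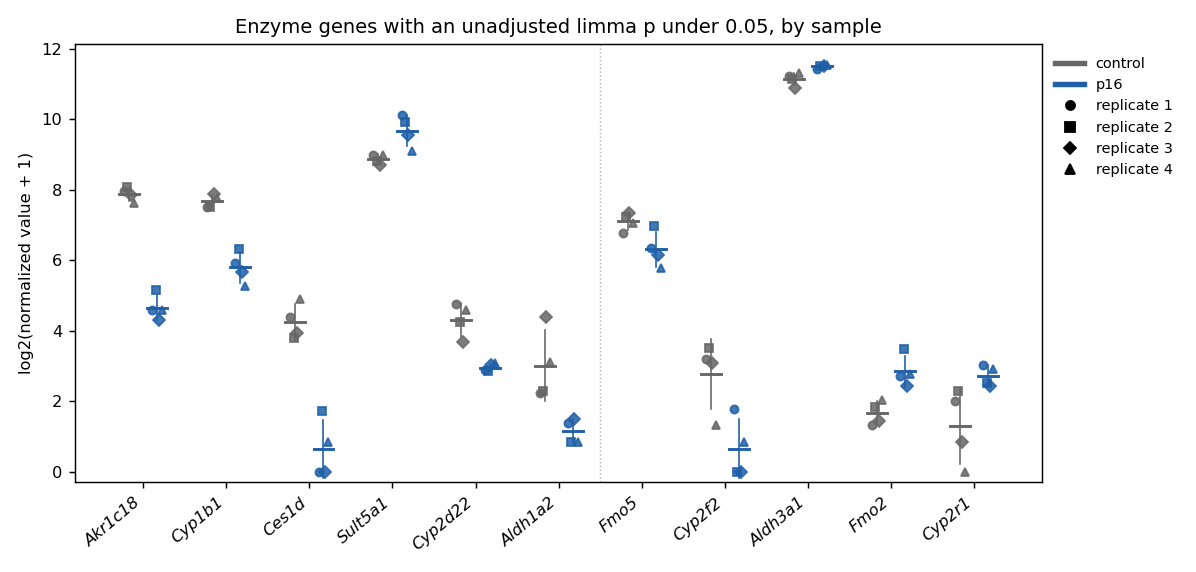
Points are log2(normalized value + 1) in each sample (y axis) for the 11 enzyme genes with an unadjusted limma p under 0.05, in control (grey) and p16 (blue) samples, with marker shapes for replicates, horizontal lines for means and vertical lines for the SD. Left of the dotted line are the 6 genes with an adjusted p under 0.05, where no p16 point lies within the control range, and right of it are 5 that missed the threshold.

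Partners that feed these enzymes were mostly not called. Of 15 electron donors and cofactor suppliers, all tested, 1 was called lower, and 4 had lower and 0 higher values at an unadjusted limma p under 0.05. For this and the partner lists below, the share over all 12782 tested genes was 3.86% called in either direction and 2.61% called lower. At an unadjusted limma p under 0.05 it was 8.93% lower and 7.02% higher. Papss2, which makes the sulfate donor PAPS, had values of 26.0, 37.2, 24.2 and 18.3 in control samples and 12.0, 14.1, 8.9 and 8.2 in p16 samples. The groups did not overlap, and the log2 fold change was -1.20 (SE 0.27, limma adjusted p = 0.0231, and 0.0522 without p16 replicate 1). Por, the reductase that passes electrons to all microsomal P450 enzymes, averaged 254 ± 49.5 and 198 ± 23.3 (SD, n = 4 each) and was not called (log2 fold change -0.35, limma adjusted p = 0.22).

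Of 19 receptors for foreign chemicals and steroids, 14 were tested and 1 was called, Pparg, which was lower. Nr1i2 and Nr1i3, the receptors that induce drug-metabolizing P450 genes in liver, were at 0 in every sample. Pparg, a lipid-sensing receptor of sebocytes and adipocytes that is also on the sebaceous list, had values of 55.6, 44.9, 45.9 and 38.2 in control samples and 3.2, 21.9, 10.6 and 3.3 in p16 samples. It fell 4.73-fold, with uneven p16 samples (log2 fold change -2.49, SE 0.44, limma adjusted p = 0.00545). Ahr and its partner Arnt, which act on Cyp1 genes, were not called, with log2 intervals of -0.19 to 0.53 and -0.28 to 0.37, and neither was the vitamin D receptor Vdr, with -0.43 to 0.14.

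Steroid, sterol and vitamin D enzymes with other names gave 1 call in 20 tested of 36 listed genes, of which 34 had an entry. Cyp27a1, the mitochondrial sterol 27-hydroxylase, had values of 98.7, 95, 121.1 and 87.1 in control samples and 53.6, 67.1, 77.1 and 34.5 in p16 samples. It fell 1.73-fold without overlap (log2 fold change -0.83, SE 0.21, limma adjusted p = 0.0435), and the call was lost without p16 replicate 1 (adjusted p = 0.118). The log2 fold changes of this list were below 0 for 17 of 20 genes, with a median of -0.19 against -0.003 for all tested genes.

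A list of 27 other detoxifying enzymes gave 20 tested genes, of which 1 was called, and it was lower. Adh1, an alcohol dehydrogenase that turns retinol into the retinaldehyde used by Aldh1a enzymes, had values of 103.9, 134.8, 95.2 and 68.8 in control samples and 8.8, 29.7, 10.6 and 20.6 in p16 samples. All p16 samples lay below all control samples, and the mean was 5.78-fold lower (log2 fold change -2.58, SE 0.32, limma adjusted p = 0.000364).

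**Figure D4:**
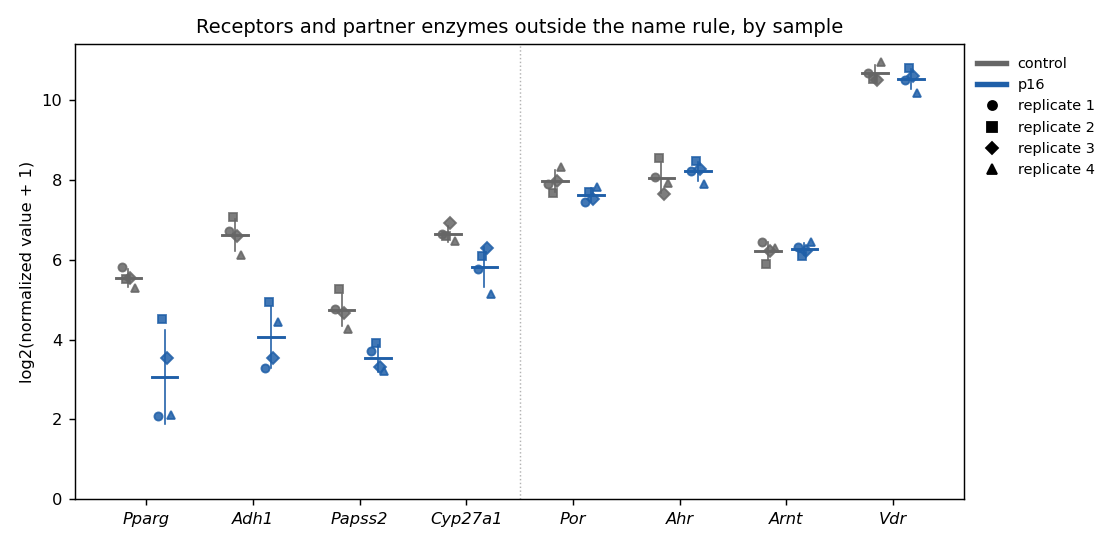
Points are log2(normalized value + 1) in each sample (y axis) for receptors and partner enzymes, in control (grey) and p16 (blue) samples, with horizontal lines for means and vertical lines for the SD. Pparg, Adh1, Papss2 and Cyp27a1 (left of the dotted line) were called lower without overlap, and Por, Ahr, Arnt and Vdr (right of it) overlap between groups.

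The calls differed in how firmly they held. Akr1c18 and Cyp1b1 passed in all 16 other fits made with an adjusted p, and Ces1d passed in the 15 that tested it. Their largest adjusted p-values were 3.27e-05, 0.00245 and 0.00622. Ces1d, with a mean of 0.775 in p16 samples, reached the limit of 1 for testing through its control samples only. Without p16 replicate 1 the log2 fold changes were -3.21 for Akr1c18 (limma adjusted p = 5.61e-06), -1.92 for Cyp1b1 (0.000331) and -3.40 for Ces1d (0.00147), and among the partners -2.16 for Pparg (0.019) and -2.33 for Adh1 (0.00113). Cyp2d22 passed in 14 of 16, Sult5a1 in 13 of 16 and Aldh1a2 in 4 of 14. Among the partners, Pparg and Adh1 passed in all 16, Papss2 in 10 of 16 and Cyp27a1 in 7 of 16.

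**Figure D5:**
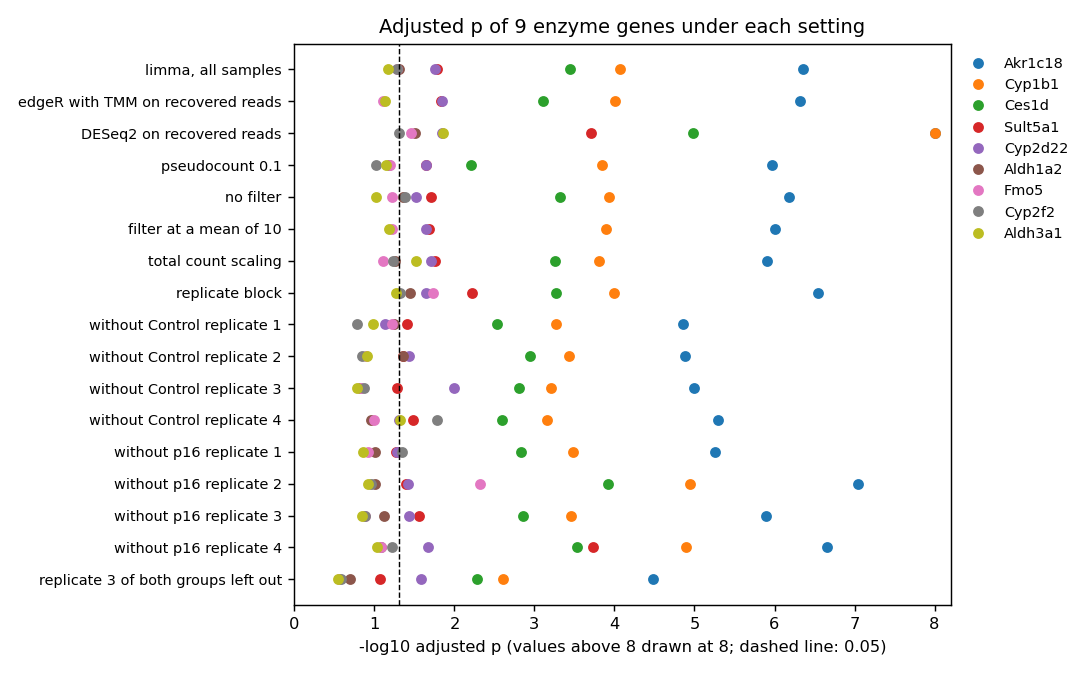
Each point is -log10 of the adjusted p (x axis, values above 8 drawn at 8) of 1 enzyme gene under 1 way of testing or set of samples (rows), and the dashed line marks 0.05. Akr1c18, Cyp1b1 and Ces1d stay to the right of the line in every row that tests them. Aldh1a2, Fmo5, Cyp2f2 and Aldh3a1 fall on both sides of it and miss the threshold in most rows.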

How the data were processed

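GFP+ keratinocytes were profiled in 4 control and 4 p16 samples, grouped by their labels. Per the methods, the authors tagged transcripts at their 3′ ends (CEL-Seq2, adapted), used Cutadapt for trimming and mapped reads with Tophat2 to GRCm38. The submitters' notes also name HTSeq and DESeq2, without versions. The annotation version and the handling of molecular identifiers are not given in the sources used here. The deposited signal values are read counts divided by a size factor for the sample, to 1 decimal place. Further columns by the authors hold group means, fold changes, a DESeq2 test score (Wald statistic) and p-values for each gene, and these deposited columns were not used.

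Dividing by the value of 1 read gave whole reads (tolerance 0.1) for 100% of the values. With 3 reads as the floor, the limit of detection lay between 2.23 and 4.58 per library, which covers counting error alone. The test was limma 3.58.1 (with trend, R 4.3.3) on log2(value + 1), run for the 12782 genes with a mean of at least 1, with Benjamini-Hochberg adjustment over all of them and a threshold of 0.05. Fold changes on this scale understate changes of low genes. edgeR 4.0.16 and DESeq2 1.42.0 on recovered reads, other pseudocounts, filters and scalings, a replicate block and fits without each sample were alternatives. Each sample pools mice, and p-values measure the spread between these samples. No pair of libraries of the same group was alike within sampling noise, and pairs across groups were not compared. The scripts were tested on simulated data. Gene coordinates are from GENCODE M21 (GRCm38), where antisense genes overlap Cyp2f2, Adh1 and Pparg. Whether counting used strand is not given, so reads of such a pair cannot be told apart.

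The members, gene lists and tests were chosen with earlier results of these data known. Named were members with an adjusted p under 0.05, the 20 lowest unadjusted p-values under 0.05, the 15 highest means and the highest mean of each family, and from the partner lists every called gene, Por, Ahr and Cyp27a1. Other genes named were chosen after their values were seen. One gene of the receptor list is not reported here, and that list is counted without it.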

Additional observations from a re-analysis of the deposited data

Results flagged for a closer look

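Among 58 groups of 4 samples examined, 3 had 1 sample far from the other 3 by Dixon's criterion, which chance alone gives in about 1 of 20 groups. Cyp3a13 had 30.8 in control replicate 2, where the other controls had 16.7 to 18.5, and 46.0 in p16 replicate 4, where the other p16 samples had 17.2 to 21.6. Ugt1a6a had 0.8, which is 1 read, in p16 replicate 2 and 0.0 in the other p16 samples.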

How the results depend on the processing

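With 4 pooled samples per group and 1760953 to 3414362 reads per sample, differences in members at a few reads were not detectable, and 128 of 184 members were not tested. In place of 1 member called higher, DESeq2 on recovered reads, no filter on low values and scaling to equal totals each gave 2, leaving out replicate 3 of both groups gave 0, and an unadjusted p under 0.05 gave 4. In place of 5 called lower, a filter at a mean of 10 gave 3, which leaves Aldh1a2 and Ces1d untested, and the other ways of testing gave 4 to 7. Leaving out each sample in turn gave 0 to 2 called higher (0 without control replicate 3 or p16 replicate 1, 2 without control replicate 4), 3 to 5 called lower (3 without control replicate 1) and a median log2 fold change of 0.009 to 0.084 (0.009 without p16 replicate 4). Among all genes, 159 were called higher and 334 lower with all 8 samples. Leaving out each sample in turn gave 69 to 196 higher (69 without p16 replicate 1). It gave 177 to 343 lower (177 without control replicate 1). Leaving out replicate 3 of both groups gave 66 higher and 157 lower among all genes. The cause of these shifts was not tested.

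Directions turned for 5 genes that were never called. Leaving out each sample in turn gave log2 fold changes of -0.055 to 0.431 for Cyp3a13, -0.063 to 0.226 for Cyp2j6, -0.060 to 0.103 for Aldh4a1 and -0.039 to 0.070 for Aldh9a1, and that of Aldh2 was -0.017 without replicate 3 of both groups. Values below 0 came without p16 replicate 4 for Cyp3a13 and Aldh4a1, without control replicate 4 for Cyp2j6, and without control replicate 1 or p16 replicate 2 (-0.037) for Aldh9a1. Deviations of same-numbered samples had correlations of 0.11, 0.02, 0.06 and 0.18, and not every sample correlated best with its own number. The labels do not say whether equal numbers mark a shared experiment, and correlations of this size cannot settle it. With a replicate block, 1 member was called higher and 7 lower, the latter with Fmo5 (adjusted p = 0.0183) and Cyp2f2 (0.0482) added, and the median log2 fold change was 0.06.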
